A study of Mus musculus with 24 samples.

Results

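The 9 genes described here encode transcription factors of the CREB/ATF family (Creb1, Crem, Atf1, Atf2 and Atf3), the CREB-regulated transcription coactivators Crtc1, Crtc2 and Crtc3, and the salt-inducible kinase Sik1. They were chosen by gene symbol from the 55414 genes of the count table. All 9 were found, and all 9 were among the 14464 genes that had at least 30 counts in 1 or more libraries and were tested. RNA was taken from the visual cortex of male C57BL/6J mice that were about 8 weeks old and had been housed on a reversed light cycle. Each mouse received phosphate-buffered saline (PBS) or psilocybin, a serotonergic psychedelic, at 5 mg/kg intraperitoneally and then spent 2.5 h in darkness or in light. The 4 groups of 6 mice were dark (PBS, darkness), light (PBS, light), psilocybin-dark (psilocybin, darkness) and psilocybin-light (psilocybin, light). One poly-A RNA-seq library was made per mouse, 24 in all, with 13552516 to 17906994 counted reads each.

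The light exposure of the groups was recorded in opposite ways. The supplementary count table of the study lists libraries 1 to 6 under PBS in the dark, 7 to 12 under psilocybin in the dark, 13 to 18 under PBS in the light and 19 to 24 under psilocybin in the light, and these headings were followed. The sample labels named the same drug for 24 of 24 libraries and the same light exposure for 0 of 24. Under the labels, each comparison below is the same contrast of mice under other names, so light-against-dark differences change sign. Arc, Egr1 and Npas4, known as light-induced genes of visual cortex, were higher in the light mice of the headings than in the dark ones (values below), and by the labels the same contrast reads as lower in light. Groups were not assigned from such values, and each direction below is that of the headings.

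CREB proteins bind the cAMP response element and are switched on by phosphorylation downstream of cAMP and calcium. Full activity also needs coactivators: CBP and p300 bind phosphorylated CREB, while CRTC proteins enter the nucleus once salt-inducible kinases no longer hold them in the cytoplasm. In visual cortex, this pathway links sensory activity to transcription and to experience-dependent plasticity. Crem, Atf3 and Sik1 can themselves be induced by activity or cAMP, whereas Creb1 and the Crtc genes are mainly regulated at the protein level. Counts of mRNA do not report phosphorylation or location of these proteins.

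To show what lies upstream of members that passed a test, 250 bases before the transcription start are given for Creb1, Atf3 and Crtc3, 5′ to 3′ on the gene's strand. They were taken from RefSeq promoter windows on the build GRCm38.p6, at chr1:64532554-64532803 (+) for Creb1, chr1:191183334-191183583 (-) for Atf3 and chr7:80688878-80689127 (-) for Crtc3. Capitals mark TGACG or CGTCA, each a short site that makes up one side of the cAMP response element (CRE).
Creb1: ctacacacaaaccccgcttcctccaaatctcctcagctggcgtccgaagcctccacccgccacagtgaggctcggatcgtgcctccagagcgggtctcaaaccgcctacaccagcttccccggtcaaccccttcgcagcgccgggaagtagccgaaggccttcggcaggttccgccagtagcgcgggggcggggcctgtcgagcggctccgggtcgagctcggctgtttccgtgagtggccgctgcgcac
Atf3: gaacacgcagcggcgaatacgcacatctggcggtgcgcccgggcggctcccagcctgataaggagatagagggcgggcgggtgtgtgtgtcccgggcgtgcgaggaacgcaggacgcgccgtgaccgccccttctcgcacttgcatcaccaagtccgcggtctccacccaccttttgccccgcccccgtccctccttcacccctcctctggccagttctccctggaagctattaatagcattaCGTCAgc
Crtc3: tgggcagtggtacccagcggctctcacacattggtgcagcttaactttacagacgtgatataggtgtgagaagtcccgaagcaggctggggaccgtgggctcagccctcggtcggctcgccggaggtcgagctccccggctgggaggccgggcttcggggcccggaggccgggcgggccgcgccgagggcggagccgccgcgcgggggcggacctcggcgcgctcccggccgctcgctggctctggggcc
The RefSeq table held 6 of the 9 genes and did not list Crem, Crtc2 or Sik1. The stretches of Creb1 and Crtc3 hold no capitals. Windows of 300 bases (250 before and 50 after the start) were searched on both strands for the full CRE, TGACGTCA, and for the short sites TGACG and CGTCA, which it contains. The full CRE was in 0 of the 6 windows. Atf3 had 1 short site, CGTCA, at position -7 relative to the start, and Atf1 had 1, TGACG, at position -90. Among the 10948 tested genes with a window, 3.48% held the full CRE and 34.7% a short site. These 10948 are 75.7% of the genes tested, under the 80% needed, so a check of the motif against the changes in expression is void and no result is drawn from it.

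Levels were compared between the genes as normalised CPM (read counts scaled to library size) per kilobase of merged exons. In dark mice, Crtc1, the coactivator most typical of neurons, had the highest level at 17.8 ± 2.91 (mean ± SD, n = 6). Atf2, a factor that pairs with Jun proteins, followed at 11.6 ± 1.19. Creb1, the founding member of the family, had a level of 5.05 ± 0.448 and Crtc2 one of 4.16 ± 0.858, and these neighbours did not differ beyond their spread. The next levels were 1.80 ± 0.254 for Atf1, 1.64 ± 0.287 for Crtc3, 1.52 ± 0.329 for Crem and 1.28 ± 0.433 for Sik1, again overlapping from each to the next. Atf3, a stress- and activity-inducible factor, was lowest at 0.388 ± 0.0666. In light mice Crem stood at 2.37 ± 0.355, above Atf1 at 1.82 ± 0.171. Merged exon lengths include long alternative exons, so levels per length are approximate.

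**Figure D1:**
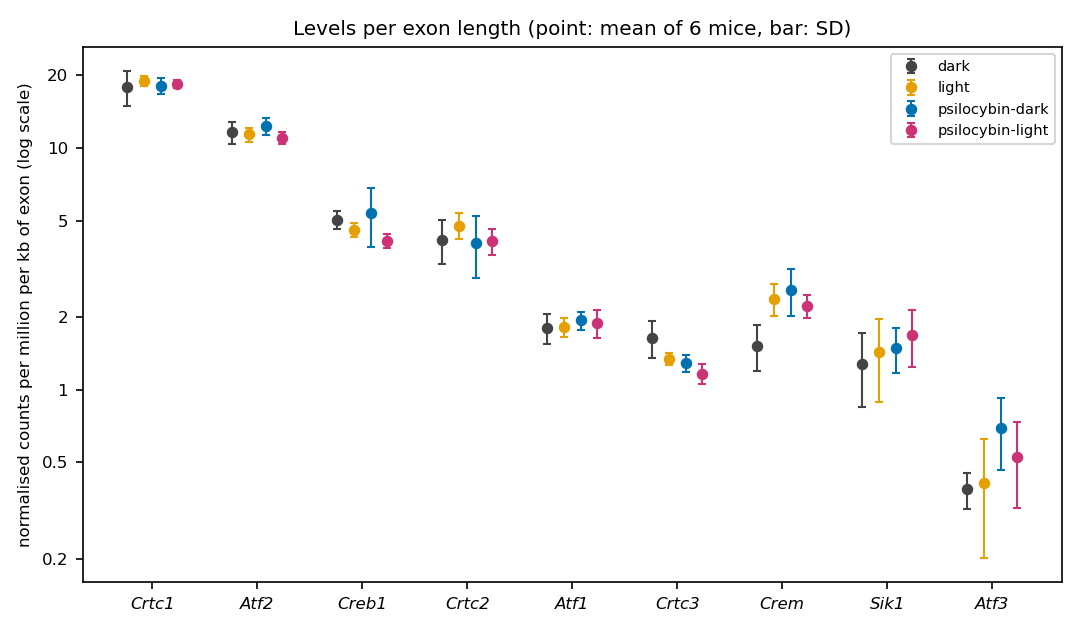
Normalised CPM per kilobase of merged exons (log scale) for the 9 genes, with the mean (point) and SD (bar) of 6 mice in each group. Crtc1 and Atf2 lay at the top in each group, Atf3 at the bottom, and Crem was at 1.52 in dark mice and at 2.23 to 2.58 in the other groups.

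Facts on the libraries bear on several results. Summed markers of cerebellum, a tissue outside the dissection, were 650.7 to 2449 CPM in dark mice 1 and 6, psilocybin-dark mouse 12 and light mouse 18, and at most 56.34 in the other 20. The first principal component (41.11% of the variance) also set these 4 libraries apart. Summed hippocampus markers (10 genes, 8 of them tested) were 173.5 to 446.1 CPM in dark mice and 68.05 to 116.3 in the other 18, with no overlap and no marker at 0 in any group. Summed markers of cortical excitatory neurons were 842.9 to 2074 CPM in dark mice (median 1941, lowest in mouse 1) and 1853 to 2461 in the others. Of these 7 markers, 5 were called higher and 0 lower in each of light, psilocybin-dark and psilocybin-light against dark (median log2 fold changes 1.06, 1.02 and 0.95), and 0 higher and 3 lower in the interaction (median -1.16). In such bulk tissue, fewer cells of a type and less RNA per cell cannot be told apart. The common biological coefficient of variation over all genes was 0.182.

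Against dark mice, 2 of the 9 genes changed in light mice, 3 in psilocybin-dark mice and 3 in psilocybin-light mice (edgeR quasi-likelihood test, adjusted p under 0.05 over 14464 genes). In light mice, 1 was higher (Crem) and 1 lower (Crtc3), where 15.4% of all genes were higher and 16.4% lower. In psilocybin-dark mice, 2 were higher (Crem, Atf3) and 1 lower (Crtc3), beside 11.9% and 12.8% of all genes. In psilocybin-light mice, 1 was higher (Crem) and 2 lower (Creb1, Crtc3), beside 17.4% and 21.0% of all genes. With so many genes called in general, these shares do not set the 9 genes apart. Groups that did not overlap were seen for 0 of the 9 in light (10.0% of all genes), 0 in psilocybin-dark (5.58%) and 2 in psilocybin-light mice (15.8%). All 3 comparisons used the same 6 dark mice and are therefore not independent of each other. Median log2 fold changes of the 9 genes were 0.08, 0.09 and 0.05, beside -0.01, -0.02 and -0.02 for all genes.

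**Figure D2:**
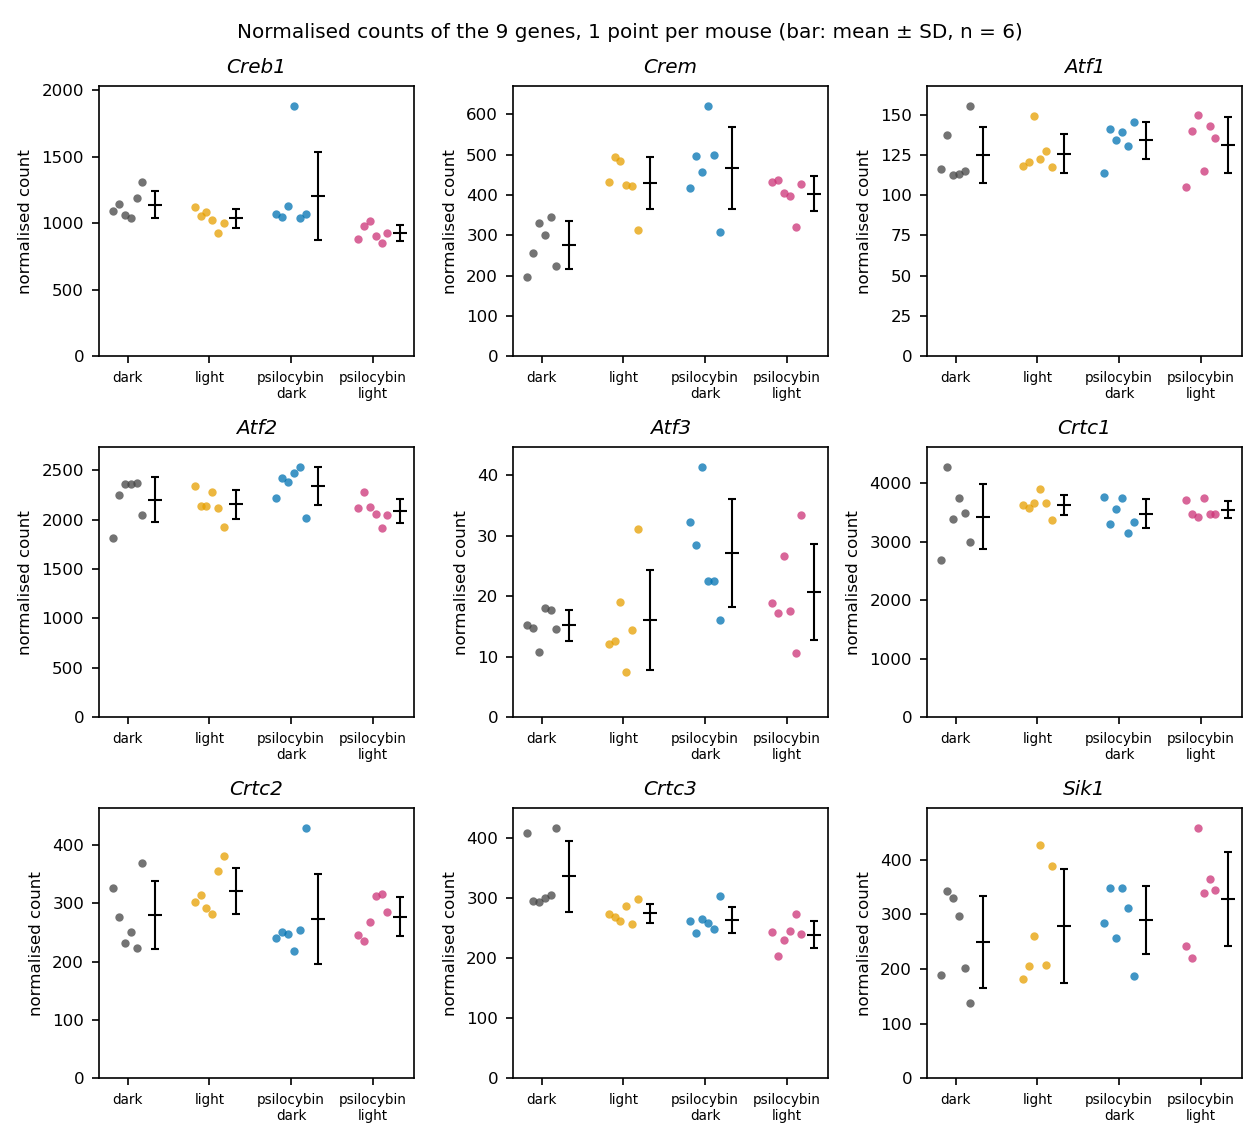
Normalised counts of each gene (y axis, from 0) in the 4 groups, with 1 point per mouse and the mean ± SD of 6 mice as a bar. Crem lay between 197.7 and 345.7 in dark mice and between 309.3 and 620.5 in the others, Creb1 reached 1883 in 1 psilocybin-dark mouse, and the groups of Sik1 overlapped throughout.

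Creb1 (ENSMUSG00000025958, GRCm39 chromosome 1, 64571731 to 64643707, plus strand) is the activator on which CREB signalling converges. Its normalised count ran from 1038 through a median of 1119 to 1313 in dark mice and from 927.6 through 1042 to 1125 in light mice. It was 1041 to 1883 in psilocybin-dark mice with a median of 1073, and 850.3 to 1018 in psilocybin-light mice with a median of 916.9. Psilocybin-light mice lay below every dark and every psilocybin-dark mouse, and the high psilocybin-dark value came from mouse 10 alone, the other 5 lying between 1041 and 1130. Creb1 was lower in psilocybin-light than in dark mice by a log2 fold change of -0.30 ± 0.11 (SE; adjusted p = 0.0379 by edgeR). A two-sided exact permutation test on this single gene, 6 mice against 6, gave p = 0.00216, the smallest that this design allows. Between psilocybin-light and psilocybin-dark mice the difference was -0.38 ± 0.11 (adjusted p = 0.0401), and without mouse 10 it was -0.21 with an adjusted p of 0.0473.

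Both Creb1 calls varied with the libraries and filter used. That against dark was made in 16 of 24 fits that left out 1 mouse, and was lost without dark mouse 2, 5 or 6 or psilocybin-light mouse 19, 20, 22, 23 or 24, where the adjusted p reached 0.0918 at a log2 fold change of -0.25 without dark mouse 6. The call against psilocybin-dark was made in 18 of 24 and was lost without psilocybin-dark mouse 9 or psilocybin-light mouse 19, 20, 22, 23 or 24, with an adjusted p of at most 0.0918. Without a filter on low counts neither was called (adjusted p = 0.0774 and 0.0964), at about the same size as before. The difference to dark was -0.25 ± 0.12 without dark mice 1 and 6 (adjusted p = 0.11) and -0.25 ± 0.13 without the 4 libraries high in cerebellum markers (0.114), and it was larger, with a wider error, under hippocampus markers as a covariate (-0.60 ± 0.19, adjusted p = 0.0704). Psilocybin-dark mouse 10 is in neither of those groups but widens the shared error. The difference to dark was -0.29 ± 0.07 with only the 2 groups fitted (adjusted p = 0.00584). Without dark mice 1 and 6 and mouse 10 it was -0.25 ± 0.06 (adjusted p = 0.000969 by edgeR). That last fit was chosen after seeing the data, and mouse 10 had the highest Creb1 count of all mice. The choice therefore bears on the error of Creb1 itself, and no conclusion on the call is drawn from that fit. The call against psilocybin-dark was lost with only the 2 groups fitted, at -0.39 ± 0.14 (adjusted p = 0.0922). In light against dark mice Creb1 differed by -0.14 ± 0.11 (adjusted p = 0.369), and in psilocybin-dark against dark by 0.08 ± 0.11 (adjusted p = 0.62).

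Crem (ENSMUSG00000063889, GRCm39 chromosome 18, 3260980 to 3337748, minus strand) encodes activators and repressors that bind the same element, among them the inducible repressor ICER made from an internal promoter. Counts per gene do not separate these isoforms. In dark mice its normalised count was 197.7 at the lowest, 277.6 at the median and 345.7 at the highest. The corresponding values were 313.6, 428.7 and 495.0 in light mice, 309.3, 477.4 and 620.5 in psilocybin-dark mice and 321.3, 415.4 and 438.3 in psilocybin-light mice. In each of the 3 groups, 5 of 6 mice lay above all 6 dark mice. The mice that did not were light mouse 18, psilocybin-dark mouse 12 and psilocybin-light mouse 23.

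Crem rose in light over dark mice by a log2 fold change of 0.64 ± 0.15 (1.56-fold, adjusted p = 0.00229 by edgeR). In psilocybin-dark mice it was higher than in dark mice by 0.76 ± 0.15 (1.70-fold, adjusted p = 0.000761). In psilocybin-light mice the difference to dark was 0.55 ± 0.15 (1.46-fold, adjusted p = 0.00565). Each of these was called in 24 of 24 fits that left out 1 mouse, with ranges of 0.56 to 0.72, 0.66 to 0.86 and 0.48 to 0.63. The exact permutation test gave p = 0.00649 for each. Crem shares 788 exonic bases with Gm6225 on the other strand, which had 6 to 29 counts against 221 to 660 for Crem, and the strand setting of the counting was not given in the sources used here.

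On the log2 scale, the Crem differences of light and psilocybin-dark mice from dark mice did not add up in psilocybin-light mice. Without the drug, Crem was higher in light than in dark mice. Psilocybin-light mice differed from psilocybin-dark mice by -0.21 ± 0.15 (95% interval -0.52 to 0.09, adjusted p = 0.462 by edgeR). The test of the difference between those effects (interaction) gave -0.85 ± 0.21 (adjusted p = 0.015), and it was called in 24 of 24 fits with a mouse left out. Crem was the 1 of the 9 genes with such a call, where 8.70% of all genes had one. Among 22 genes with well-known CREB-dependent transcription, described below, 8 had a negative interaction call and 1 a positive one. Arc, Egr1 and Npas4 were at -2.031, -1.477 and -1.415 (adjusted p = 0.0058, 0.00798 and 0.0296 by edgeR), and Penk was at 1.48 (0.00657). A negative interaction was therefore not particular to Crem. Among groups other than dark, Crem counts overlapped and no pair differed past the threshold, with log2 differences of -0.09, -0.21 and 0.12.

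Crem varied inversely with the cerebellum and hippocampus marker lists over the 24 mice. Against dark and in the interaction, it moved in the direction of the cortical excitatory neuron markers. The part of the neuron markers in these changes was not tested. Within groups, it was low in the 4 libraries rich in cerebellum markers: its Pearson correlation with their log2 sum over 24 mice was -0.76, and -0.82 with group means removed. Without these 4 libraries, its differences from dark were 0.56, 0.69 and 0.40 (adjusted p = 0.000348, 4.7e-05 and 0.00395, respectively) and the interaction was -0.85 (adjusted p = 0.000352). With hippocampus markers, which separated dark mice from all others, the correlation was -0.68, and -0.20 with group means removed. With the mean log2 CPM of the 8 tested hippocampus markers as a covariate, the calls of Crem by edgeR were lost. Its differences from dark were 0.33 ± 0.26 in light (adjusted p = 0.524), 0.45 ± 0.26 in psilocybin-dark (0.606) and 0.19 ± 0.29 in psilocybin-light mice (0.764). The interaction was -0.59 ± 0.28 (adjusted p = 0.459). As the sum of these markers set dark mice apart, condition and tissue composition cannot be told apart by this covariate. Of all genes, 3.75%, 0.0% and 4.69% were called against dark with this covariate and 0.0% for the interaction, so the loss was not particular to Crem.

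**Figure D3:**
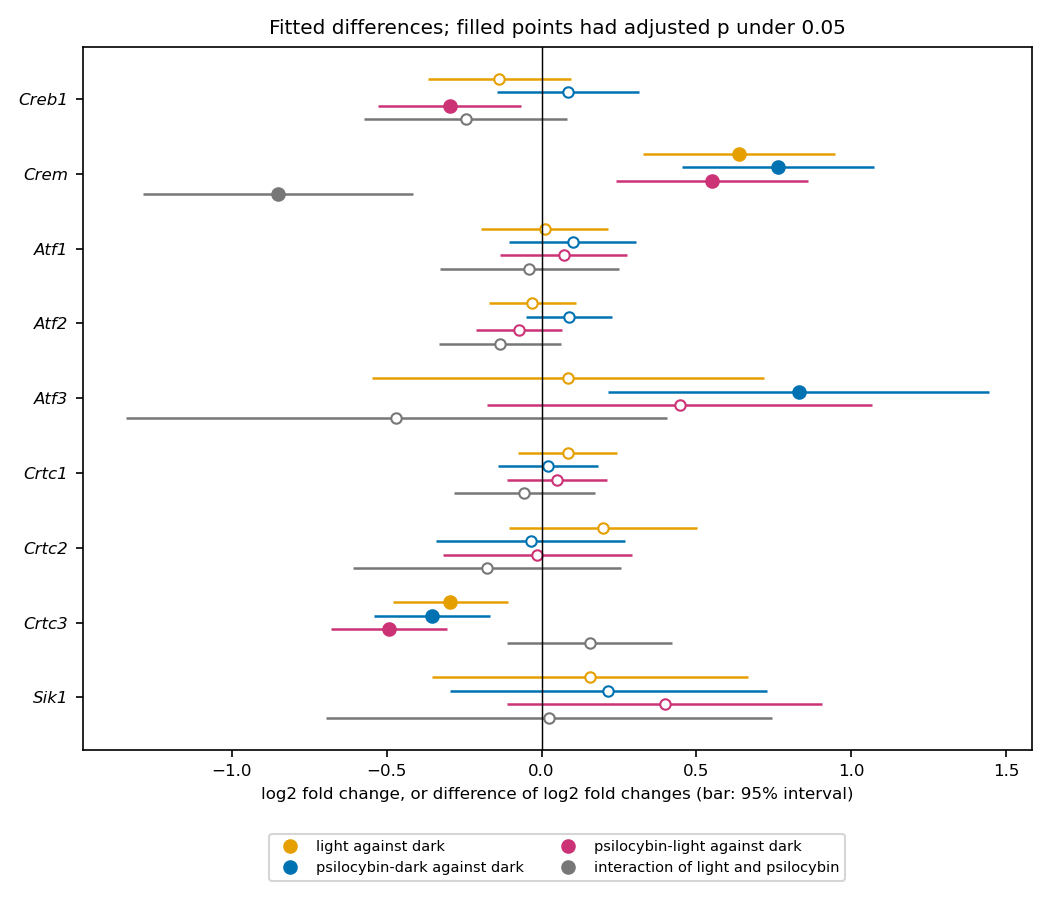
Log2 fold changes against dark mice and the interaction (grey) for each of the 9 genes, with 95% intervals from t with 20 residual degrees of freedom. Filled points had an adjusted p under 0.05 by edgeR. Crem lay above 0 in the 3 comparisons and at -0.85 for the interaction, Crtc3 lay below 0 in the 3, and Sik1 had intervals that crossed 0.

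Atf1 (ENSMUSG00000023027, GRCm39 chromosome 15, 100125664 to 100159129, plus strand) forms dimers with Creb1 and binds the same element. Its normalised counts were 112.2 to 155.3 in dark mice, 117.6 to 149.0 in light, 113.6 to 145.1 in psilocybin-dark and 104.8 to 149.5 in psilocybin-light mice. The groups overlapped, and the log2 fold changes against dark were 0.01, 0.10 and 0.07, each with an SE of 0.10. The intervals bound a difference at -0.20 to 0.21 for light and -0.10 to 0.31 for psilocybin-dark. A processed pseudogene, Atf1-ps, had 0 to 2 counts in the same libraries.

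Atf2 (ENSMUSG00000027104, GRCm39 chromosome 2, 73644562 to 73723111, minus strand) is activated by stress kinases. Its count was 1812 to 2370 in dark mice (median 2306), 1922 to 2342 in light (2138), 2020 to 2532 in psilocybin-dark (2398) and 1917 to 2282 in psilocybin-light mice (2085). All 6 psilocybin-light mice lay below the dark median and below the psilocybin-dark median, though the ranges overlapped. It did not pass the test in any comparison: against dark the changes were -0.03, 0.09 and -0.07 (SE 0.07 each), and psilocybin-light against psilocybin-dark gave -0.16 ± 0.07 (adjusted p = 0.163). The 4 libraries high in cerebellum markers were the lowest of their groups (dark mice 1 and 6, light mouse 18 and psilocybin-dark mouse 12). Without those 4, Atf2 was lower in psilocybin-light than in dark mice by -0.15 (adjusted p = 0.00844) and than in psilocybin-dark mice by -0.19 (adjusted p = 0.00434).

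Atf3 (ENSMUSG00000026628, GRCm39 chromosome 1, 190902493 to 190950241, minus strand), a repressor induced by injury, stress and strong activity, was measured with 7 to 42 raw counts per library. Its normalised count was 10.8 to 18.0 in dark mice, 7.46 to 31.2 in light, 16.0 to 41.4 in psilocybin-dark and 10.7 to 33.4 in psilocybin-light mice. Of the psilocybin-dark mice, 5 of 6 exceeded every dark mouse. The log2 fold change was 0.83 ± 0.29 (1.78-fold, adjusted p = 0.0419 by edgeR). It was called in 14 of 24 fits that left out 1 mouse, and was lost without dark mouse 1, 2, 3, 4 or 6 or psilocybin-dark mouse 7, 8, 9, 10 or 11, falling to 0.67 (adjusted p = 0.12) without mouse 9. It was also lost without a filter on low counts (0.83 ± 0.29, adjusted p = 0.0662), without dark mice 1 and 6 (0.82 ± 0.34, 0.0705) and with hippocampus markers as a covariate (0.91 ± 0.51, 0.595). The size hardly moved in these 3 fits. It was not lost without the 4 libraries high in cerebellum markers (0.92 ± 0.30, adjusted p = 0.0173). In light mice the difference to dark was 0.08 ± 0.30 and in psilocybin-light mice 0.45 ± 0.30, neither past the threshold, with intervals of -0.55 to 0.72 and -0.18 to 1.07.

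Crtc1 (ENSMUSG00000003575, GRCm39 chromosome 8, 70834994 to 70892394, minus strand) is required in neurons for CREB-driven transcription after synaptic activity. Its normalised count was 2681 to 4272 in dark mice, and 3372 to 3904 in light, 3151 to 3762 in psilocybin-dark and 3415 to 3737 in psilocybin-light mice. The dark range took in all other mice. Log2 fold changes against dark were 0.08, 0.02 and 0.05 (SE 0.08 each), with intervals that stayed between -0.14 and 0.25.

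Crtc2 (ENSMUSG00000027936, GRCm39 chromosome 3, 90161460 to 90171432, plus strand), best known for control of gluconeogenic genes in liver, had 223.0 to 370.1 normalised counts in dark mice. The range was 281.4 to 381.9 in light mice, 218.1 to 429.4 in psilocybin-dark and 235.3 to 316.4 in psilocybin-light mice. The highest values of the dark, light and psilocybin-dark groups were those of mice 6, 18 and 12, all high in cerebellum markers. With those markers, the correlation of Crtc2 was 0.61, and 0.83 with group means removed. In all 24 libraries the changes against dark were 0.20, -0.03 and -0.01 (SE 0.15 each), none past the threshold. Without the 4 libraries, Crtc2 was higher in light than in dark mice by 0.33 ± 0.09 (adjusted p = 0.00576) and lower in psilocybin-dark than in light mice by -0.36 ± 0.09 (adjusted p = 0.0231).

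Crtc3 (ENSMUSG00000030527, GRCm39 chromosome 7, 80236375 to 80338685, minus strand) was the coactivator whose mRNA passed the test. In dark mice its normalised count was 292.3 at the lowest, 302.0 at the median and 415.8 at the highest, where mice 1 and 6 had 407.0 and 415.8 and the other 4 had 292.3 to 303.9. Light mice ran from 256.2 through 271.1 to 297.5, psilocybin-dark mice from 240.7 through 260.2 to 302.3 and psilocybin-light mice from 203.0 through 241.2 to 272.7. All 6 psilocybin-light mice lay below all dark mice, as did 5 of 6 in each of the other groups. Crtc3 was lower than in dark mice in all 3 groups, with log2 fold changes of -0.29 ± 0.09 in light (adjusted p = 0.0149), -0.35 ± 0.09 in psilocybin-dark (adjusted p = 0.00613) and -0.49 ± 0.09 in psilocybin-light mice (adjusted p = 0.000189, by edgeR).

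The Crtc3 differences depended in part on dark mice 1 and 6. Without dark mouse 6 the light difference was -0.22 with an adjusted p of 0.0504, and without dark mice 1 and 6 it was -0.11 (adjusted p = 0.212). With only light and dark mice fitted, its adjusted p was 0.0589. Without both mice the psilocybin-dark difference was -0.17 (adjusted p = 0.062), while the psilocybin-light one was -0.31 and still called (adjusted p = 0.00124). Crtc3 counts followed the cerebellum markers, with a correlation of 0.82 over 24 mice and 0.82 with group means removed. Without the 4 libraries high in them, Crtc3 was lower by -0.14 in light mice (adjusted p = 0.073), by -0.23 in psilocybin-dark mice (adjusted p = 0.00819) and by -0.31 in psilocybin-light mice (adjusted p = 0.000315). With hippocampus markers as a covariate the differences kept nearly their size, at -0.28 ± 0.14, -0.34 ± 0.14 and -0.47 ± 0.16, while the errors grew and none of the 3 was called (adjusted p = 0.301, 0.461 and 0.0881). Between psilocybin-light and light mice, 5 of 6 lay below all light mice, with a log2 difference of -0.20 ± 0.09 that did not pass the correction (adjusted p = 0.482).

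**Figure D4:**
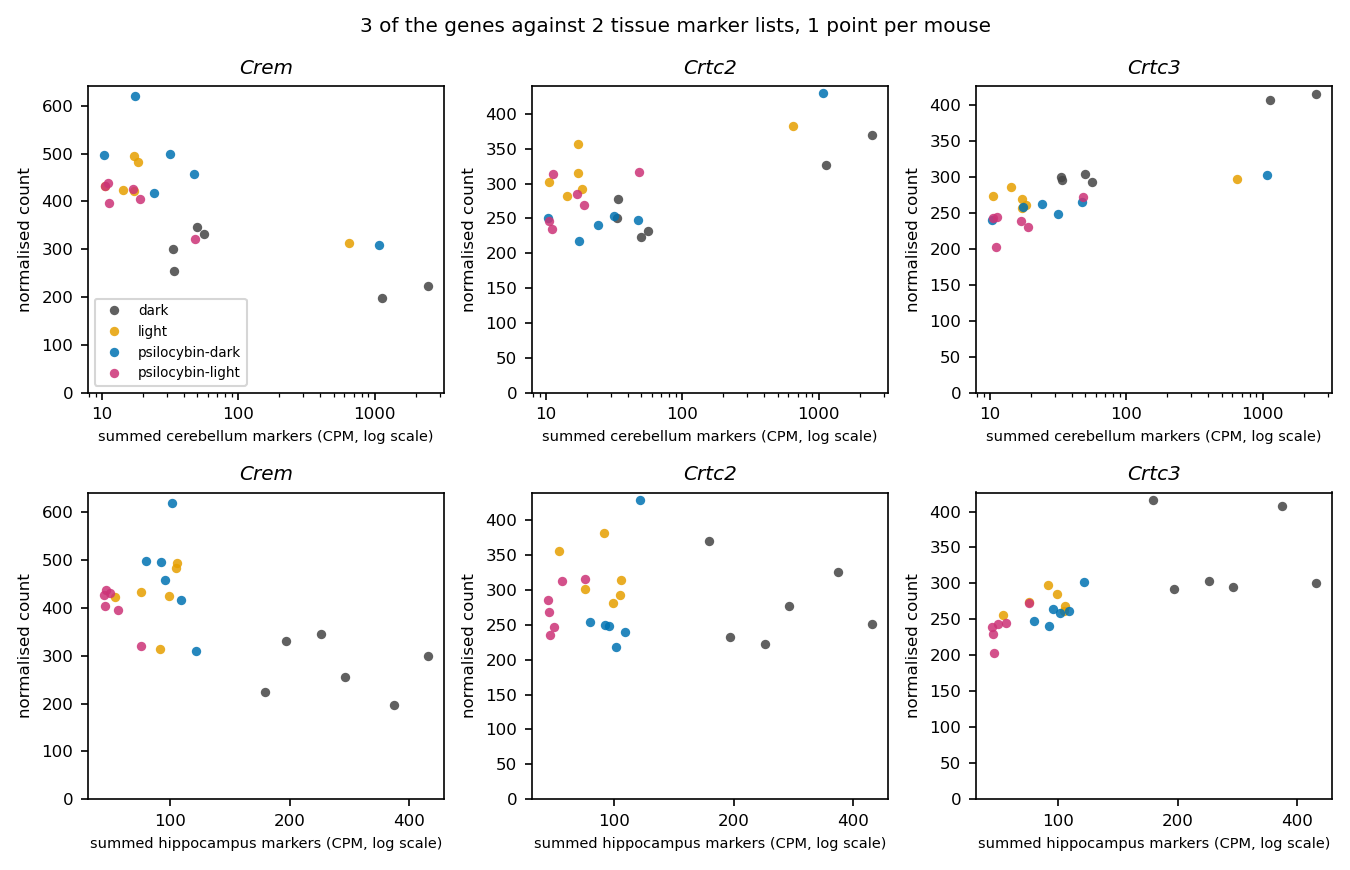
Normalised counts of Crem, Crtc2 and Crtc3 (y axes, from 0) against the summed CPM of cerebellum markers (upper panels) and hippocampus markers (lower panels), on log x axes, with 1 point per mouse. The 4 libraries at 650.7 CPM of cerebellum markers and above were low in Crem and high in Crtc2 and Crtc3 for their groups, and the dark mice stood apart at 173.5 CPM of hippocampus markers and above.

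Sik1 (ENSMUSG00000024042, GRCm39 chromosome 17, 32058850 to 32074818, minus strand) encodes the kinase that keeps CRTC proteins out of the nucleus and is itself a CREB-dependent gene. Its normalised count was 138.0 at the lowest, 249.4 at the median and 342.3 at the highest in dark mice, and 181.7, 233.2 and 427.5 in light mice. It was 187.2, 298.0 and 348.8 in psilocybin-dark and 220.2, 341.3 and 457.7 in psilocybin-light mice. The 4 groups overlapped over most of their range, with coefficients of variation within groups of 21.4% to 37.6%. Log2 fold changes against dark were 0.16 ± 0.25 for light, 0.22 ± 0.25 for psilocybin-dark and 0.40 ± 0.24 for psilocybin-light mice (adjusted p = 0.661, 0.564 and 0.208 by edgeR). With this spread, the intervals ran from -0.35 to 0.67, from -0.30 to 0.73 and from -0.11 to 0.91, and the change of Crem in the same comparison lay inside the first and the last of them.

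Comparisons that did not use dark mice gave few calls. Between psilocybin-light and light mice 0 of the 9 genes were called, beside 0.581% of all genes by edgeR (0 of 9 and 1.32% by DESeq2), and 1 (Crtc3) had an unadjusted p under 0.05. Between psilocybin-dark and light mice 0 of 9 were called, beside 0.463% of all genes by edgeR (0 of 9 and 2.80% by DESeq2), and 1 had an unadjusted p under 0.05. That gene was Atf3, at 0.74 ± 0.29 (adjusted p = 0.216). Between psilocybin-light and psilocybin-dark mice 1 of 9 was called (Creb1), beside 6.40% of all genes. Without the 4 libraries high in cerebellum markers, the numbers called in these 3 comparisons were 0, 2 (Atf3, Crtc2) and 3 (Creb1, Crem, Atf2), and the shares of all genes called rose to 2.43%, 5.96% and 17.0%. Against dark, the same fit called 2 of the 9 in light mice (Crem, Crtc2) and 3 in psilocybin-dark mice (Crem, Atf3, Crtc3). In psilocybin-light mice it called 3 (Crem, Atf2, Crtc3). Crtc3 in light and Creb1 in psilocybin-light mice were no longer called (adjusted p = 0.073 and 0.114 by edgeR). Of all genes, 42.8%, 38.2% and 48.0% were called in these comparisons.

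The other genes of the pathway were taken from 5 lists, whose counts are to be read against the shares of all genes called higher and lower: 15.4% and 16.4% in light, 11.9% and 12.8% in psilocybin-dark and 17.4% and 21.0% in psilocybin-light mice. Of 22 genes with well-known CREB-dependent transcription, all tested, 12 rose and 1 fell in light, 13 rose and 1 fell in psilocybin-dark and 12 rose and 2 fell in psilocybin-light mice, each against dark. This list was chosen with earlier results of these data known. It holds Arc, Egr1, Npas4 and Fosb, which the study reported as increased by light and by psilocybin in these mice. Its excess over the shares of all genes is therefore no independent result. The medians of the list were 0.57, 0.57 and 0.53 on the log2 scale. Arc, an activity-induced synaptic gene, had 1089 ± 333 normalised counts in dark and 7729 ± 3174 in light mice, a log2 fold change of 2.83 ± 0.31 (adjusted p = 1.84e-06). It was 2.44 ± 0.31 above dark in psilocybin-dark and 3.23 ± 0.32 in psilocybin-light mice. Egr1, an immediate early transcription factor, rose by 1.88 ± 0.23, 1.64 ± 0.23 and 2.05 ± 0.23 in the same order. Npas4, a calcium-induced factor of neurons, rose by 2.37 ± 0.30, 1.70 ± 0.29 and 2.65 ± 0.30. Penk, the precursor of enkephalins, fell, with changes of -1.57 ± 0.22, -1.57 ± 0.22 and -1.65 ± 0.22. These 4 genes passed the test in each comparison with dark. Hippocampus markers separate the dark mice in the same comparisons, and 5 of the 7 cortical excitatory neuron markers rose in each of them with medians of 0.95 to 1.06. The part of either in these changes was not tested.

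In the 28 kinases and phosphatases that act on CREB or CRTC proteins, 8 rose and 5 fell in light, 9 rose and 4 fell in psilocybin-dark and 9 rose and 7 fell in psilocybin-light mice. Camkk1, which switches on CaM kinases, rose by 0.65 ± 0.13, 0.53 ± 0.13 and 0.98 ± 0.13, and its target Camk1 by 0.56, 0.48 and 0.64 (SE 0.06 each). Rps6ka5, the CREB kinase MSK1, fell, with changes of -0.67, -0.55 and -0.52 (SE 0.09 each), as did Rps6ka6, a ribosomal S6 kinase, with -0.84, -0.97 and -1.06 (SE 0.17 each). The shares of this list called lower were near those of all genes in each comparison, and the shares called higher were above them. The difference from the shares of all genes was not tested. Of 19 genes for cAMP synthesis and breakdown, 4 rose and 5 fell in light, 6 rose and 4 fell in psilocybin-dark and 5 rose and 4 fell in psilocybin-light mice. The cAMP phosphodiesterases Pde7b (1.25 ± 0.19 in light), Pde4b (0.33 ± 0.06) and Pde8b (0.65 ± 0.13) were among those that rose, and Gnal, a stimulatory G protein subunit, fell by 0.32 ± 0.05.

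Of 14 other CREB/ATF bZIP genes, 13 were tested. In light mice 5 rose and 0 fell, in psilocybin-dark mice 3 rose and 1 fell, and in psilocybin-light mice 6 rose and 0 fell. Jdp2, a partner and repressor of Jun proteins, rose by 1.09 ± 0.13 in light and Atf6, a sensor of endoplasmic reticulum stress, by 0.75 ± 0.14. Ddit3, induced by the same stress, rose by 0.33 ± 0.07 in light, and Crebzf by 0.30 ± 0.07. In psilocybin-dark mice, Jdp2 (0.93 ± 0.13) and Atf6 (0.95 ± 0.14) were called higher than in dark. Ddit3 (0.05 ± 0.07, adjusted p = 0.679 by edgeR) and Crebzf (0.14 ± 0.07, 0.174) were not. The coactivators that bind phosphorylated CREB differed. Crebbp, which encodes CBP, had 945 ± 83.5 normalised counts in dark, 911 ± 224 in light, 982 ± 31.3 in psilocybin-dark and 619 ± 36.9 in psilocybin-light mice. It was lower in psilocybin-light mice than in dark (-0.61 ± 0.11, adjusted p = 0.000216), light (-0.56 ± 0.11, adjusted p = 0.0255) and psilocybin-dark mice (-0.67 ± 0.11, adjusted p = 0.00144). Ep300, which encodes p300, fell by 0.21 ± 0.07 in light mice (adjusted p = 0.0196 by edgeR) and was not called in the other groups. Its change against dark was -0.16 ± 0.07 in psilocybin-light (adjusted p = 0.0594) and -0.02 ± 0.07 in psilocybin-dark mice (0.86). Between psilocybin-light and light mice it differed by 0.05 ± 0.07 (adjusted p = 0.925).

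**Figure D5:**
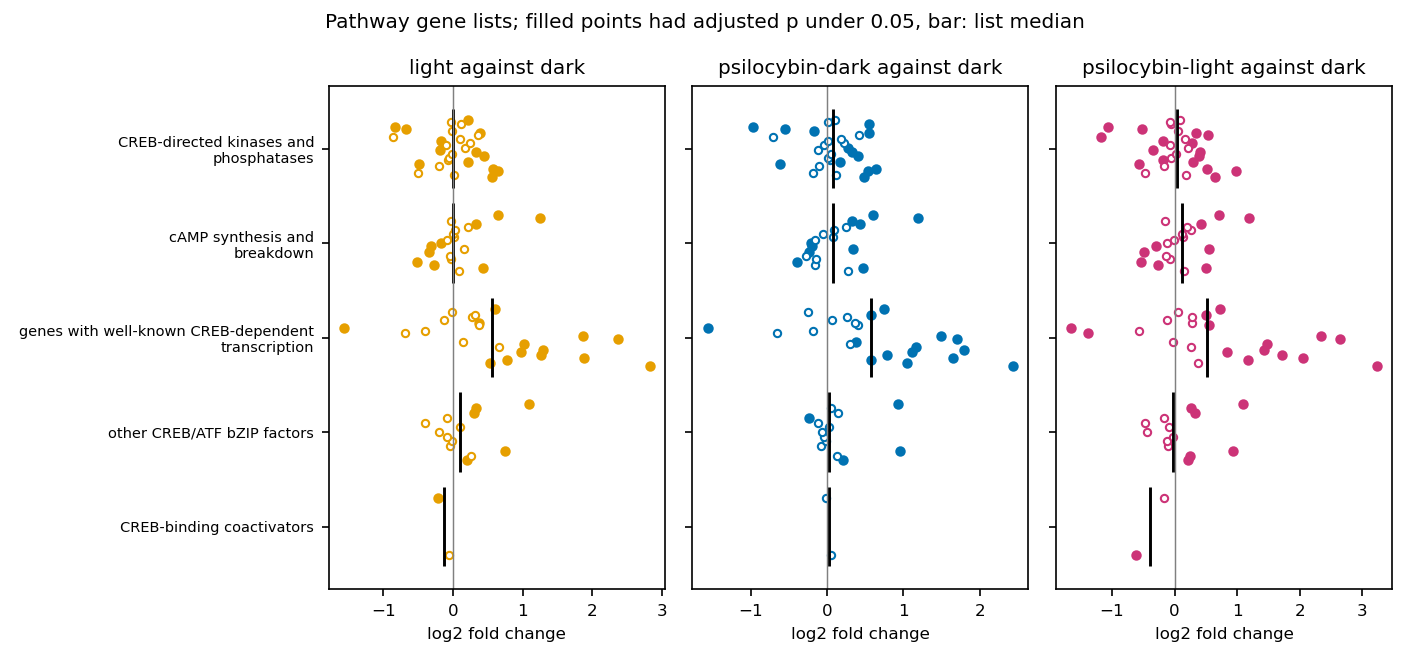
Log2 fold changes against dark (x axes) of the genes in the 5 pathway lists (rows), with 1 point per gene, filled where the adjusted p by edgeR was under 0.05, and the list median as a bar. The CREB-dependent genes had medians of 0.53 to 0.57, and medians of the kinase, cAMP and bZIP lists lay between -0.03 and 0.12.

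For the inducible members, the genes most alike across mice were sought among the 12393 whose mean count reached 50, by Pearson correlation of log2 CPM over 24 mice. For Crem the 5 highest were Homer1 (0.961), Dusp7 (0.945), Etv5 (0.945), Rgs4 (0.944) and Lrrk2 (0.942), and with group means removed they were 0.87 to 0.92. For Sik1 they were Midn (0.796), Pvr (0.779), Eya1 (0.765), Tmem100 (0.762) and Per1 (0.762), a clock gene. For Atf3 the first was Zfp277 at 0.80 (0.80 with group means removed), followed by Heatr3, Eif2s1, Ddx1 and Ifitm2 at 0.58 to 0.60. With group means removed, the latter were at 0.31 to 0.58, lowest for Heatr3. These genes are the highest of 12393, and the correlations were not tested. Once group means were removed, Crem correlated with Crtc2 at -0.85 and with Atf2 at 0.85. With the cerebellum markers, Crem and Atf2 correlated negatively (-0.82 each) and Crtc2 positively (0.83). The part of library composition in the correlations above was not tested.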

How the data were processed

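RNA was sequenced from 24 male mice, 6 per group, with 1 library per mouse. The authors trimmed reads with cutadapt, mapped them with STAR to GRCm39 (per the methods; the submitters' processing notes name mm10) and made counts per gene identifier with HTSeq. The deposited values are these raw counts. Annotation release and strand setting are not given in the sources used here. Totals of 13552516 to 17906994 counts per library limit precision chiefly for Atf3.

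Groups followed the supplementary table's headings. Counts were tested with edgeR 4.0.16 in R 4.3.3: genes with at least 30 counts in any library, TMM scaling, a robust quasi-likelihood fit of 24 libraries with 1 term per group, two-sided tests and Benjamini-Hochberg adjustment over 14464 genes at 0.05. Normalised counts are counts per effective library size, scaled to the mean effective size of 16058300. Log2 CPM used a prior count of 2. Exact permutation tests compared group means of log2 CPM. Positions and exon lengths came from GENCODE vM39 (GRCm39), which names 54749 of the 55414 identifiers. Within groups, 60 pairs of libraries were compared, and the lowest chi-square per degree of freedom was 3.02, so none was counted as a duplicate. The fitting was tested on simulated data.

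Members, gene lists and tests were chosen with earlier results of these data known. Named genes are all 9 members, up to 4 genes per pathway list with the smallest p in light against dark among those called there or in psilocybin-dark against dark (both genes for the coactivators), and the 5 nearest genes of Crem, Sik1 and Atf3. Alternatives used DESeq2 1.42.0 and sva 3.50.0. Leaving out the 4 libraries high in cerebellum markers, and leaving out dark mice 1 and 6 with psilocybin-dark mouse 10, were chosen after seeing the data. Fold changes and p-values of the authors' own comparisons were not used.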

Additional observations from a re-analysis of the deposited data

Results flagged for a closer look

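Groups of 6 mice were screened with Dixon's ratio of the gap at one end to the whole range, at its 95% critical value. Of 36 sets (9 genes in 4 groups), 4 exceeded it, where chance flags about 1 set in 20. Creb1 was 1883 normalised counts in psilocybin-dark mouse 10, with the nearest other mouse at 1130 (ratio 0.894). Crem was 321.3 in psilocybin-light mouse 23, with the nearest at 396.5 (ratio 0.643), and this mouse had the most cerebellum markers of its group at 48.21 CPM. Atf1 was 149.0 in light mouse 15, with the nearest at 127.1 (ratio 0.697). Crtc2 was 429.4 in psilocybin-dark mouse 12, with the nearest at 253.7 (ratio 0.832), and this mouse had 1067 CPM of cerebellum markers. The part of these markers in the Crem and Crtc2 values was not tested mouse by mouse.

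The difference in Crem between mice in light and in darkness was not the same with and without psilocybin. The interaction was -0.851 on the log2 scale (edgeR interaction test, adjusted p = 0.015). Without the drug, 5 of 6 light mice lay above all dark mice. With it, 0 of 6 psilocybin-light mice lay above or below all psilocybin-dark mice, though 6 of 6 lay below the psilocybin-dark median. That difference was -0.21 ± 0.15 (adjusted p = 0.462 by edgeR). With hippocampus markers as a covariate the interaction was -0.59 ± 0.28 and was not called (adjusted p = 0.459), as for 0.0% of all genes called.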

How the results depend on the processing

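The number of the 9 genes called was 2 in light, 3 in psilocybin-dark and 3 in psilocybin-light mice against dark, and 0, 1, 0 and 1 for psilocybin-light against light, psilocybin-light against psilocybin-dark, psilocybin-dark against light and the interaction. With one mouse left out, these numbers ran from 1 to 2, 2 to 3, 2 to 3, 0 to 0, 0 to 1, 0 to 0 and 1 to 1. DESeq2's Wald test, DESeq2's size factors in edgeR and filterByExpr kept each within 1.5 times. With only the compared groups fitted, light against dark gave 1 and psilocybin-light against psilocybin-dark gave 0. Without a filter, the latter gave 0 as well. Hippocampus markers as a covariate gave 0 for light, psilocybin-dark and psilocybin-light against dark and 0 for the interaction. Of all genes, 3.75%, 0.0%, 4.69% and 0.0% were called in these, so the 0 is not particular to the 9. One surrogate variable gave 2 for psilocybin-light against psilocybin-dark. Without dark mice 1 and 6, psilocybin-dark against dark gave 1 and psilocybin-light against psilocybin-dark gave 2. Leaving out psilocybin-dark mouse 10 as well gave 1 for the former. Without the 4 libraries highest in cerebellum markers, psilocybin-light against psilocybin-dark gave 3 and psilocybin-dark against light gave 2, with 17.0% and 5.96% of all genes called. Fewer samples enter some of these fits; otherwise the cause was not tested.

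The light exposure of the sample labels gave 0 for psilocybin-dark and psilocybin-light against dark, and 3 for psilocybin-light against light and psilocybin-dark against light, because it exchanges the names of the groups. Under it Crem was -0.639 in light against dark, -0.089 in psilocybin-dark against dark, 0.762 in psilocybin-light against light and 0.851 for the interaction. Crtc3 was 0.294 in light against dark. Creb1 was 0.222 in psilocybin-light against dark, 0.382 in psilocybin-light against psilocybin-dark and -0.297 in psilocybin-dark against light.

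Of 684 single-gene values under the alternatives other than leaving out one mouse, 27 lost a call and 18 gained one. A further 8 changed sign with a call on one side, and 78 uncalled values changed sign. All 8 came from the light exposure of the sample labels, which exchanges the names of the groups. Some of the lost and gained calls came from it too. Of 1512 values with one mouse left out, 25 lost a call. For the full CRE, the share of genes called higher against dark was 16.3% in light, 14.4% in psilocybin-dark and 20.7% in psilocybin-light mice. With short sites counted instead it was 16.8%, 12.7% and 19.1%, and those genes include the ones with the full CRE. Among all tested genes with a window it was 15.3%, 11.7% and 17.4%. That check is void as stated, and no result is drawn from these shares. No paired analysis was possible because the library numbers are not shared between groups. Low counts limit Atf3, and spread between mice limits Sik1.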
